A study of Mus musculus with 9 samples.

Results

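The 10 genes described here encode proteins that secretory cells of the airway make for lung defence: Scgb1a1, Scgb3a1, Scgb3a2, Bpifa1, Bpifb1, Pigr, Cyp2f2, Ltf, Reg3g and Lypd2. They were found by gene symbol. All 10 were found among the 22180 genes that the arrays name through a transcript cluster with 1 symbol, and a gene with several clusters is given by the brightest, judged by its mean. A transcript cluster is a probe set of the array, which may carry 1 gene symbol, several or none. The RNA came from lung organoids, which are small bodies grown in Matrigel from the digested lungs of male BALB/c mice, and was hybridised to 9 arrays of the type Affymetrix Mouse Gene 2.0 ST, 3 in each of 3 groups. The mice entered the model as adults, aged 8 to 12 weeks by the methods, and the lungs were taken after the exposure period. CSD5 organoids came from mice that had breathed cigarette smoke over 12 weeks and were taken on culture day 5, before the change of medium on day 6, so they had grown in proliferation medium with 5% FBS. CSD14 organoids came from mice with the same exposure and were taken on day 14, in differentiation medium with 2% FBS. ND14 organoids came from naïve mice in clean air and were taken on day 14, also in differentiation medium with 2% FBS. CSD14 against ND14 therefore sets exposed against naïve mice on the same day, CSD5 against CSD14 sets an early against a late culture of exposed mice with day and medium changing together, and in CSD5 against ND14 exposure, day and medium all differ. The differentiation medium is described as with or without ROCK and TGF-β inhibitors, and the sources do not say which arrays had them.

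Club cells are dome-shaped secretory cells of the small airways. They release secretoglobins and antimicrobial proteins into the airway lining fluid, detoxify inhaled chemicals with cytochrome P450 enzymes, and can renew themselves and give rise to ciliated cells after injury. Secretory cells of the larger airways share many of these products, so the genes mark a secretory programme rather than a single cell type. Several of them, above all Bpifa1, Ltf, Pigr and Reg3g, are also known to respond to bacteria, cytokines or interferons.

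The start regions of 4 members are shown. They are the genes with a matched window among the 5 that passed both by adjusted p and by the study's thresholds in CSD14 against ND14, as given below. The windows run from 250 bases before to 50 bases after the annotated start site, read 5′ to 3′ on the gene's strand, from RefSeq with the build GRCm38.p6: chr2:154142630-154142929 on the plus strand for Bpifa1, chr1:130826434-130826733 on the plus strand for Pigr, chr6:78468825-78469124 on the minus strand for Reg3g and chr11:49663345-49663644 on the plus strand for Scgb3a1. Capitals mark the letters CTCAAG on either strand, a core that NKX2-1, the homeodomain factor of lung epithelium, can bind.
Bpifa1: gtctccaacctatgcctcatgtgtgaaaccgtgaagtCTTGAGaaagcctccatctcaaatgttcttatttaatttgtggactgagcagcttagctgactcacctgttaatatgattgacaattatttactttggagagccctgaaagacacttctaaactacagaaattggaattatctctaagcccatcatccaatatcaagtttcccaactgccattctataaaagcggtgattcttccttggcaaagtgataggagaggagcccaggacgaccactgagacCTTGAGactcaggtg
Pigr: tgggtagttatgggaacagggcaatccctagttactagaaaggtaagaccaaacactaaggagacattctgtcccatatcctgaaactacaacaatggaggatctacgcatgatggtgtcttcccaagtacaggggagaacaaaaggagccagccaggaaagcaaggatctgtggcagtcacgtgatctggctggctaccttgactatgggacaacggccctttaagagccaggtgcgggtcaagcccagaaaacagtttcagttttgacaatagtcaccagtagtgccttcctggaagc
Reg3g: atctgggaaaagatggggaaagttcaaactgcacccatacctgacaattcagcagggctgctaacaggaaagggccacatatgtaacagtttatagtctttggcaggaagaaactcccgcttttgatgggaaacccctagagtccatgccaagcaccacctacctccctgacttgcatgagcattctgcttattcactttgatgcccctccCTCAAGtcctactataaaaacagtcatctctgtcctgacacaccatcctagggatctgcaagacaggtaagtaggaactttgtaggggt
Scgb3a1: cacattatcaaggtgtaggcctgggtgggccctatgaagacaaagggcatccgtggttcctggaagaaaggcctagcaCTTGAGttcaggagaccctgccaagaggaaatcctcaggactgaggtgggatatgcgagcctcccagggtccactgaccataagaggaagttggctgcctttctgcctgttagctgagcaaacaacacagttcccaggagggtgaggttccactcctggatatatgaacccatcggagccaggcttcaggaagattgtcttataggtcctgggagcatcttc
The letters stand once in Scgb3a1, with the first base at -172 from the start site, in Bpifa1 at -213 and 36, and once in Reg3g at -39, and Pigr has none. Windows were matched and kept for 7 of the members, with 8 start regions. Of these 3, all shown here, hold CTCAAG on either strand, against 15.9% of all 32851 windows of that length. Windows of members on a chromosome that was left out are not counted, while the share of all windows includes that chromosome. The letters TGTTTAC, a core for FOXA factors, stood in 0 of the 8 and in 3.65% of all windows on either strand, so the motifs overlap in no window shown. A match is a description of letters and not a binding site.

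The deposited values were log2 signals per transcript cluster. Values of different genes are not set against each other, since probes differ in brightness. All 10 members lay above the array's median, which was 2.79 to 3.04, on all 9 arrays. Ltf reached within 0.11 of the highest value on an array and Bpifa1 within 0.43, where an array can compress differences. Differences were tested with limma in 1 model of the 3 groups with Benjamini-Hochberg adjustment over all 34472 transcript clusters, and the words rose and fell are kept for genes whose adjusted p is under 0.05. The labels number the arrays as biological replicates and no source ties them to separate mice or separate cultures. The p-values thus reflect only how much these samples differ among themselves, which may be technical. CSD5 replicate 1 stood apart from its group. Correlated over all clusters, it averaged r = 0.991 with ND14, r = 0.973 with its own group and r = 0.963 with CSD14. Most tests and counts of the members in CSD5 are therefore given with and without that array.

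In CSD14 organoids 8 of the 10 members rose relative to ND14 and 0 fell. Among all transcript clusters 5.48% rose and 3.66% fell in the same comparison. The genes that rose were Bpifa1, Pigr, Reg3g, Scgb1a1, Scgb3a1, Ltf, Lypd2 and Cyp2f2. Bpifa1, Pigr and Reg3g rose over 5 times, Scgb1a1 and Scgb3a1 about 2 times, and Ltf, Lypd2 and Cyp2f2 by less than that. Scgb3a2 and Bpifb1 did not pass the test. The median log2 fold change of the 10 members was 0.94, against 0.00 over all clusters. On each of the 10 genes all 3 CSD14 arrays lay above all 3 ND14 arrays, which was so for 13.1% of all clusters. The members are well-expressed genes, and among the 20689 clusters at or above the 40th percentile of mean signal the share that rose was 10.4%. That cut lies well below the members. Bpifb1 was at the 64.7th to 79.1st percentile of the arrays, and every other member was at or above the 86.3rd. The 10.4% is thus not a share matched to the members' brightness. In organoid RNA more secretory cells and more RNA per secretory cell cannot be told apart, and that holds for every result below.

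**Figure D1:**
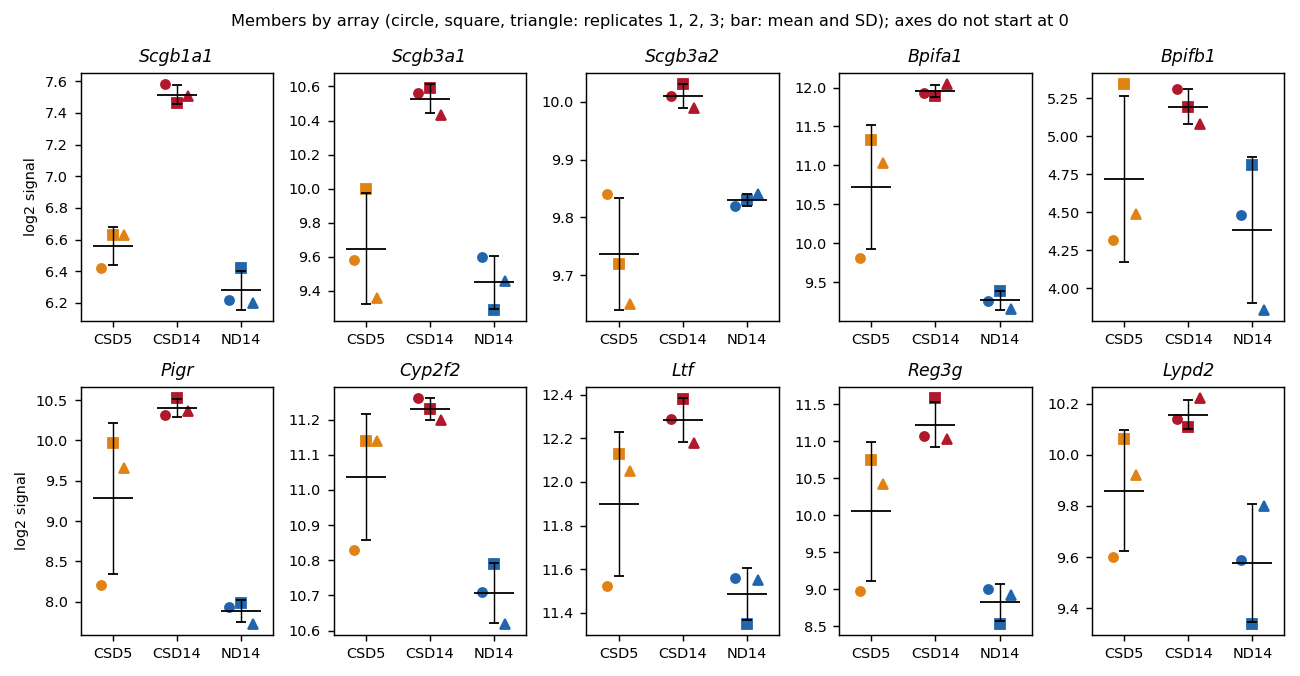
Log2 signal of the 10 members on each array, 1 panel per gene with its own axis, for CSD5, CSD14 and ND14. Symbols are the 3 replicates of a group and the bars are the mean and SD. In every panel the 3 CSD14 arrays lie above the 3 ND14 arrays, and in all but Scgb3a1 and Scgb3a2 CSD5 replicate 1, the circle, is the lowest of the CSD5 arrays.

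Among the secretoglobins, small secreted dimers that make up much of the protein of airway lining fluid, the best known club cell product is Scgb1a1, also called club cell secretory protein. Scgb1a1 had log2 signals of 7.58, 7.46 and 7.51 in CSD14, against 6.22, 6.42 and 6.20 in ND14. The CSD14 arrays lay together and more than 1 log2 unit above every ND14 array. The log2 fold change was 1.24 (SE 0.11, 2.36-fold, limma adjusted p = 0.000426). Scgb3a1 had 10.56, 10.59 and 10.43 in CSD14, against 9.60, 9.29 and 9.46 in ND14. Its groups were again well apart, with a log2 fold change of 1.08 (SE 0.16, 2.11-fold, limma adjusted p = 0.00358). Scgb3a2, the relative that is expressed early in the developing airway, had 10.01, 10.03 and 9.99 in CSD14, against 9.82, 9.83 and 9.84 in ND14. Those groups did not overlap because each was very tight, but the difference was small, with a log2 fold change of 0.18 (SE 0.10, 1.13-fold, limma adjusted p = 0.373). The difference between the secretoglobins was not itself tested.

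Bpifa1 and Bpifb1 belong to the BPI fold family, secreted lipid-binding proteins of the upper and conducting airways. Bpifa1, which lowers surface tension, restrains bacterial growth and limits sodium uptake by the epithelium, showed the largest rise of the 10 members. It had 11.93, 11.89 and 12.04 in CSD14, against 9.26, 9.39 and 9.15 in ND14. The groups were far apart beside their own spread, and the log2 fold change was 2.69 (SE 0.32, 6.44-fold, limma adjusted p = 0.00134). Bpifb1, the longer relative, had 5.31, 5.19 and 5.08 in CSD14, against 4.48, 4.81 and 3.86 in ND14. The ND14 arrays were spread over almost 1 log2 unit. The log2 fold change of 0.81 (SE 0.29, 1.75-fold) did not pass, with a limma adjusted p of 0.137.

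Pigr carries dimeric IgA and IgM through the epithelial cell into the airway, so it is the gene of the group that links the epithelium to antibody defence. Pigr had 10.31, 10.52 and 10.37 in CSD14, against 7.94, 7.99 and 7.73 in ND14. All CSD14 arrays were more than 2 log2 units above all ND14 arrays. The log2 fold change was 2.51 (SE 0.37, 5.71-fold, limma adjusted p = 0.00301). Jchain, which encodes the chain that joins the antibodies Pigr carries, was at 1.55 to 1.82 on all 9 arrays, below every array's median. Of 12 measured markers of B, plasma and T cells, 0 passed in any of the 3 comparisons.

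Ltf and Reg3g act on microbes directly. Reg3g, a C-type lectin that kills Gram-positive bacteria in the gut, had 11.07, 11.58 and 11.03 in CSD14, against 9.01, 8.54 and 8.93 in ND14. The groups lay about 2 log2 units apart, with a log2 fold change of 2.40 (SE 0.39, 5.28-fold, limma adjusted p = 0.00487). Ltf encodes lactoferrin, which withholds iron from bacteria and is made by airway glands and by neutrophils. It had 12.29, 12.38 and 12.18 in CSD14, against 11.56, 11.35 and 11.55 in ND14. The log2 fold change was 0.80 (SE 0.16, 1.74-fold, limma adjusted p = 0.0137), near the top of the arrays' range. Of 18 neutrophil markers, 4 were above the array's median on all 9 arrays and 5 were at or under it on all 9, and the mean of the list was 2.83 to 2.99 in CSD14 and 3.53 to 3.60 in ND14. The granule genes Camp, at 1.77 to 2.41, and Ngp, at 1.77 to 2.62, were among the 5. The part of neutrophil RNA in the Ltf signal was not tested.

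Cyp2f2 and Lypd2 complete the group. Cyp2f2 is the cytochrome P450 of mouse club cells that activates naphthalene, and it had 11.26, 11.23 and 11.20 in CSD14, against 10.71, 10.79 and 10.62 in ND14. The difference was modest but wider than the spread in either group, with a log2 fold change of 0.52 (SE 0.12, 1.44-fold, limma adjusted p = 0.0202). A second and much dimmer transcript cluster of Cyp2f2, at 3.98 to 4.70 on all arrays, did not follow it (log2 fold change 0.03, limma adjusted p = 0.96), and the mean of both clusters gave 0.28 (limma adjusted p = 0.267; 0.00259 to 0.267 over the alternatives). Lypd2, a member of the Ly6/uPAR domain family, had 10.14, 10.11 and 10.22 in CSD14, against 9.59, 9.34 and 9.80 in ND14. Its log2 fold change was 0.58 (SE 0.15, 1.50-fold, limma adjusted p = 0.0436), the adjusted p closest to the threshold among the 8 that rose. The calls of Cyp2f2, Ltf and Lypd2 were sensitive to single arrays. Leaving out 1 array at a time kept them in 4, 6 and 3 of 9 fits. The limma adjusted p ran from 0.00598 to 0.083 for Cyp2f2, from 0.00098 to 0.0564 for Ltf and from 0.0176 to 0.138 for Lypd2. Cyp2f2 was lost without any 1 of the CSD14 arrays and without ND14 replicate 1 or 3, Ltf without CSD14 replicate 1 or 2 or ND14 replicate 2, and Lypd2 without CSD5 replicate 3, any 1 of the CSD14 arrays or ND14 replicate 1 or 2. Scgb1a1, Scgb3a1, Bpifa1, Pigr and Reg3g passed in all 9. When the study's own rule was applied, which asks for a fold over 2 and a p under 0.05 with no adjustment, those 5 were the members called, against 2.31% of all clusters higher by that rule.

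**Figure D2:**
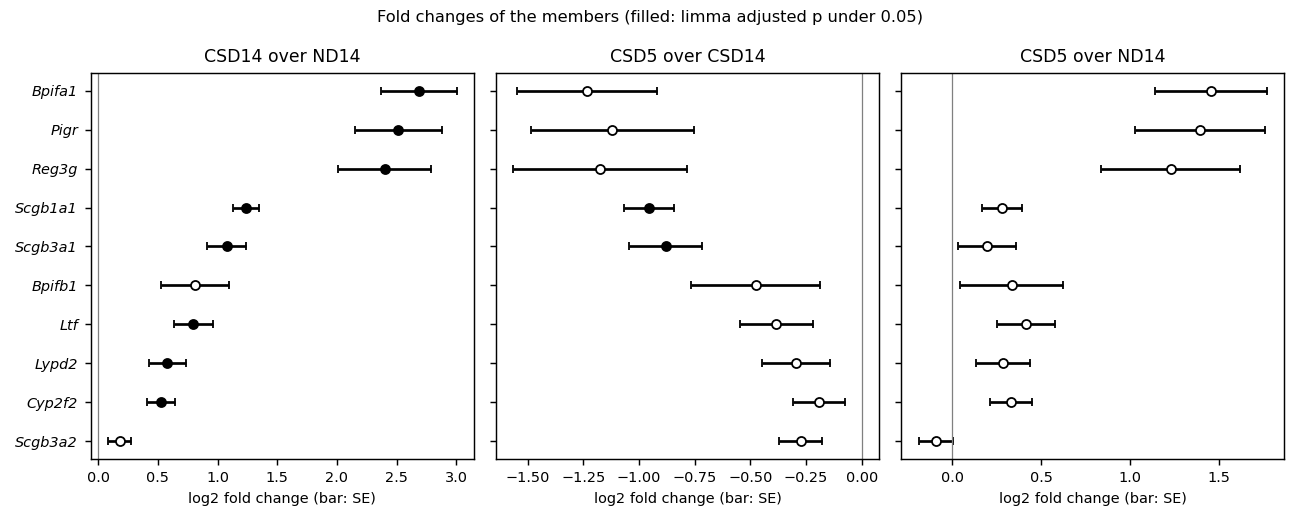
Log2 fold change of each member with its SE in CSD14 over ND14, CSD5 over CSD14 and CSD5 over ND14, with filled points where the limma adjusted p is under 0.05. The first panel has 8 filled points to the right of 0, the second 2 filled points to the left, Scgb1a1 and Scgb3a1, and the third 0.

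In CSD5 organoids 2 of the 10 members, Scgb1a1 and Scgb3a1, fell relative to CSD14, and 0 rose. Of all clusters 1.91% fell and 0.496% rose. Scgb1a1 had 6.42, 6.63 and 6.63 in CSD5, against 7.58, 7.46 and 7.51 in CSD14, with a log2 fold change of -0.96 (SE 0.11, limma adjusted p = 0.00392). Every CSD5 array was thus far below the CSD14 arrays, and the fall was called in all 9 fits that left out 1 array. Scgb3a1 had 9.58, 10.0 and 9.36 in CSD5, against 10.56, 10.59 and 10.43 in CSD14, with a log2 fold change of -0.88 (SE 0.16, limma adjusted p = 0.0273). That call was kept in 3 of the 9 fits that left out 1 array, with adjusted p of 0.0116 to 0.11, and was lost without CSD5 replicate 3, without each CSD14 array in turn and without ND14 replicate 1 or 3. The 3 CSD5 arrays lay below all CSD14 arrays for 9 of the 10 members, Bpifb1 being the exception, and for 14.0% of all clusters. With CSD5 replicates 2 and 3 alone the same 9 members lay below, and 30.2% of all clusters. The median log2 fold change of the members was -0.68, against -0.09 over all clusters. Without CSD5 replicate 1 it was -0.455, against -0.14.

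The genes with the widest gap between exposed and naïve organoids on day 14 varied most among the CSD5 arrays. Pigr had 8.21, 9.97 and 9.66 in CSD5, against 10.31, 10.52 and 10.37 in CSD14. Replicate 1 was near the ND14 arrays while replicates 2 and 3 were close to CSD14, and the log2 fold change of -1.12 (SE 0.37) did not pass (limma adjusted p = 0.165). Bpifa1 had 9.81, 11.32 and 11.03 in CSD5, against 11.93, 11.89 and 12.04 in CSD14, with a log2 fold change of -1.23 (limma adjusted p = 0.0809). Reg3g had 8.98, 10.75 and 10.43 in CSD5, against 11.07, 11.58 and 11.03 in CSD14, with a log2 fold change of -1.17 (limma adjusted p = 0.172). In all 3 genes replicate 1 was more than 1 log2 unit below the other CSD5 arrays. Among the members the SD within a group ran from 0.10 to 0.94 in CSD5, from 0.02 to 0.31 in CSD14 and from 0.01 to 0.48 in ND14. The remaining members differed by -0.19 (Cyp2f2) to -0.48 (Bpifb1) and did not pass, with adjusted p of 0.198 to 0.461. By the study's thresholds 3 members were lower in CSD5, namely Bpifa1, Pigr and Reg3g, against 0.957% of all clusters, and without CSD5 replicate 1 there were 0, against 0.853%.

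The other members had narrower gaps. Ltf had 11.52, 12.13 and 12.05 in CSD5, against 12.29, 12.38 and 12.18 in CSD14, and Cyp2f2 had 10.83, 11.14 and 11.14 in CSD5, against 11.26, 11.23 and 11.20 in CSD14. Lypd2 had 9.60, 10.06 and 9.92 in CSD5, against 10.14, 10.11 and 10.22 in CSD14. In these 3 genes replicate 1 was again the lowest CSD5 array, and the other CSD5 arrays lay close below the CSD14 arrays. Scgb3a2 behaved otherwise, with 9.84, 9.72 and 9.65 in CSD5, against 10.01, 10.03 and 9.99 in CSD14. There CSD5 replicate 1 was the highest of its group and replicates 2 and 3 were below all ND14 arrays. Bpifb1 had 4.32, 5.34 and 4.49 in CSD5, against 5.31, 5.19 and 5.08 in CSD14, and its CSD5 replicate 2 lay above all CSD14 arrays.

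Against ND14, CSD5 organoids showed 0 members past the test in limma, and 1 cluster of 34472, or 0.00290%, rose in that comparison. Unadjusted p was under 0.05 for 6 of the 10, all higher in CSD5, against 4.52% of all clusters. The log2 fold changes were 1.45 for Bpifa1 (SE 0.32, adjusted p = 0.194), 1.39 for Pigr (SE 0.37, adjusted p = 0.205) and 1.23 for Reg3g (SE 0.39, adjusted p = 0.237), and -0.09 to 0.41 for the other 7. Bpifa1, Pigr and Cyp2f2 had all 3 CSD5 arrays above all 3 ND14 arrays, which was so for 4.31% of all clusters. Without CSD5 replicate 1 there were 7 such members, against 9.34% of all clusters. By the study's thresholds Bpifa1, Pigr and Reg3g were higher with all arrays, against 0.766% of all clusters, and also without that array, against 1.50%. The median log2 fold change was 0.33, against -0.09 over all clusters, and without CSD5 replicate 1 it was 0.48, against -0.14.

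Without CSD5 replicate 1 the picture for several members changed. That array was set apart for its likeness to ND14, so leaving it out favours a difference between CSD5 and ND14. Over all clusters the number called in that comparison went from 1 to 3333. The fit rests on CSD5 replicates 2 and 3 alone, and its adjusted p-values are a description and no separate evidence. Against ND14, 5 members then rose in CSD5, compared with 3.40% of all clusters. Bpifa1 had a log2 fold change of 1.91 (limma adjusted p = 2.84e-05), Pigr of 1.93 (3.78e-05), Reg3g of 1.76 (0.000662), Ltf of 0.60 (0.0132) and Cyp2f2 of 0.43 (0.0351). Against CSD14, 3 members fell, compared with 2.87% of all clusters. These were Scgb1a1 with -0.89 (limma adjusted p = 0.00399), Scgb3a1 with -0.85 (0.04) and Bpifa1 with -0.78 (0.0146), and Bpifa1 also passed without CSD5 replicate 2 (0.0422). Over all 9 fits that left out 1 array the adjusted p ran from 2.84e-05 to 0.628 for Bpifa1 and from 3.78e-05 to 0.637 for Pigr in CSD5 against ND14. For Reg3g it ran from 0.000662 to 0.668. The count of 8 members that rose in CSD14 against ND14 was the same without that array.

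A simple way to place each CSD5 array is to put the ND14 mean at 0% and the CSD14 mean at 100% on the log2 scale. Scgb3a2 is left out because its groups on day 14 differ by only 0.18. Over the other 9 members the median place was 11.3% for CSD5 replicate 1, 80.8% for replicate 2 and 65.6% for replicate 3. Pigr stood at 12.9%, 82.9% and 70.6%, Bpifa1 at 20.2%, 76.4% and 65.6%, and Reg3g at 6.39%, 80.1% and 66.8%. Cyp2f2, Ltf and Lypd2 followed the same order, with replicate 1 at 4.02% to 23.6% and the others at 59.2% to 83.3%. Scgb1a1 stood lower, at 11.3%, 28.3% and 28.3%, and Scgb3a1 at 12.1%, 51.1% and -8.36%. So in CSD5 replicates 2 and 3 Bpifa1, Pigr, Reg3g, Ltf and Cyp2f2 had more than 60% of the distance to CSD14 on both arrays, while Scgb1a1 had less than 30% on either. Bpifb1 was scattered, at -7.82%, 118% and 13.2%. These places are a description, and differences between genes in them were not tested.

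**Figure D3:**
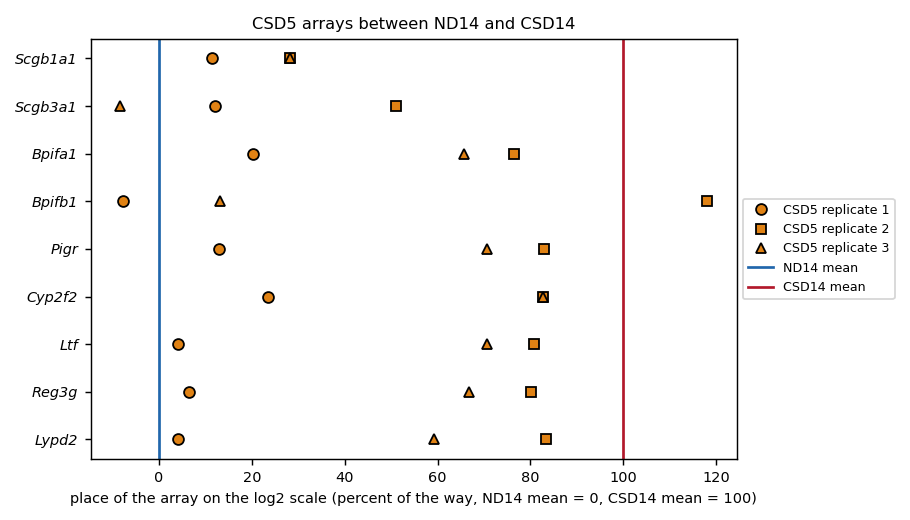
Place of each CSD5 array between the ND14 mean (0%) and the CSD14 mean (100%) on the log2 scale, for 9 members without Scgb3a2. CSD5 replicate 1 lies near ND14 for every gene shown, and replicates 2 and 3 lie past 59% for Bpifa1, Pigr, Cyp2f2, Ltf, Reg3g and Lypd2 but at 28.3% for Scgb1a1.

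The members had like profiles over the 9 arrays. Among the 45 pairs Pearson's r ran from 0.32 for Scgb3a2 with Cyp2f2 to 0.996 for Ltf with Reg3g, with a median of 0.84. Each gene's r with the mean of the other members was 0.49 for Scgb3a2, 0.79 for Bpifb1 and 0.88 to 0.99 for the other 8. These values are over 9 arrays that share the same 3 groups, so they hold the group differences and are no separate evidence. The 10 genes whose profile was most like the members' mean, among 1614 candidates, were Ifi27, Mapk12, Nnt, Man2b2, Slc44a4, Efemp1, Fn1, Lrrc26, Oat and Cxcl17, with r of 0.998 for Ifi27 down to 0.994 for Cxcl17. Ifi27 is an interferon-induced gene, Cxcl17 a mucosal chemokine and Lrrc26 a subunit of potassium channels in secretory epithelia.

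Other club cell genes were described from a list of 37 measured genes, which leaves out the 10 members. In CSD14 against ND14, 19 of the 37 rose and 2 fell, with a median log2 fold change of 0.56. For this list and those below, the shares of all clusters in that comparison were 5.48% higher and 3.66% lower. Pon1, a secreted esterase, had 7.99, 7.74 and 7.86 in CSD14, against 3.84, 3.45 and 3.83 in ND14, with a log2 fold change of 4.16 (SE 0.37, limma adjusted p = 0.000426). The flavin monooxygenases Fmo1 and Fmo2 rose by 1.54 (adjusted p = 0.00111) and 3.51 (adjusted p = 0.00126) on the log2 scale, and the monocarboxylate transporter relative Slc16a11 by 1.49 (adjusted p = 0.000769). The 2 that fell were the carboxylesterase Ces1f, by 2.78 (adjusted p = 0.0312), and the P450 Cyp2b10, by 0.76 (adjusted p = 0.0264). In CSD5 against CSD14, 1 rose and 7 fell, and 0 passed in CSD5 against ND14. Without CSD5 replicate 1 these became 2 and 11, and 16 higher and 4 lower. In those fits, counting both directions, 1417 of all 34472 clusters were called against CSD14 and 3333 against ND14. Of the 37, 33 were above the array median on all 9 arrays. Upk3a and Cckar, which mark subsets of mouse club cells, were near it, at 2.94 to 3.64 and 2.19 to 3.07.

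The wider group of 38 measured defence proteins of airway epithelium, secreted or at the membrane, held calls in both directions. In CSD14 against ND14, 16 rose and 5 fell, with a median of 0.44. Complement factor B (Cfb) rose by 2.17 on the log2 scale (SE 0.16, limma adjusted p = 0.000285), the antimicrobial peptide precursor Adm by 1.70 (SE 0.13, adjusted p = 0.000285) and the membrane mucin Muc1 by 3.08 (SE 0.31, adjusted p = 0.000724). The gel-forming mucin Muc5b, which secretory cells of the airway also make, fell by 1.53 (SE 0.17, adjusted p = 0.00101). Muc5b had 5.14, 5.16 and 5.23 in CSD14, against 6.70, 6.69 and 6.72 in ND14, so its groups were apart in the direction opposite to the members. In CSD5 against CSD14, 2 rose and 5 fell, and 0 passed in CSD5 against ND14. Without CSD5 replicate 1 the counts were 6 higher and 6 lower, and 13 higher and 4 lower. Of all 34472 clusters 1417 and 3333 were called in those fits, counting both directions.

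Relatives of the members by family were 88 measured genes, of which 8, or 9.09%, rose in CSD14 against ND14 and 9 fell. The share that rose lies between the 5.48% of all clusters and the 10.4% of the brighter ones. More relatives fell than rose, whereas fewer of all clusters fell (3.66%) than rose. Of the 15 other measured genes of the BPI fold family and its relatives, 2 rose in CSD14 against ND14 and 2 fell, with a median of -0.09. Lbp, the lipopolysaccharide-binding protein, rose by 2.53 (SE 0.38, limma adjusted p = 0.00324) and the phospholipid transfer protein Pltp by 0.69 (SE 0.14, adjusted p = 0.0124), while Bpifc fell by 4.70 (SE 0.90, adjusted p = 0.0104) and Bpifa5 by 3.30 (SE 0.79, adjusted p = 0.0278). Of 6 other Reg genes 1 rose, namely Reg1, which had 4.78, 4.68 and 4.34 in CSD14, against 2.60, 2.51 and 3.08 in ND14 (log2 fold change 1.87, adjusted p = 0.000769). Reg3b, a close relative of Reg3g, was at 1.99 to 2.39 on all 9 arrays, below every array's median. Of 23 other Ly6 and uPAR domain genes 4 rose and 6 fell, among them Ly6g6c (-4.74, adjusted p = 0.000292), Lypd3 (-4.42, adjusted p = 0.00137), Psca (-2.12, adjusted p = 0.000411) and Ly6e (0.91, adjusted p = 0.00294). Of 43 other Cyp2 enzymes 1 rose and 1 fell, Cyp2a4 with 2.77 (adjusted p = 0.0026), which has a near-identical copy in Cyp2a5 that its probes may also read, and Cyp2b10 with -0.76, and 30 of the 43 were at or under the array median on all 9 arrays. The 1 measured transferrin relative, Meltf, did not pass.

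**Figure D4:**
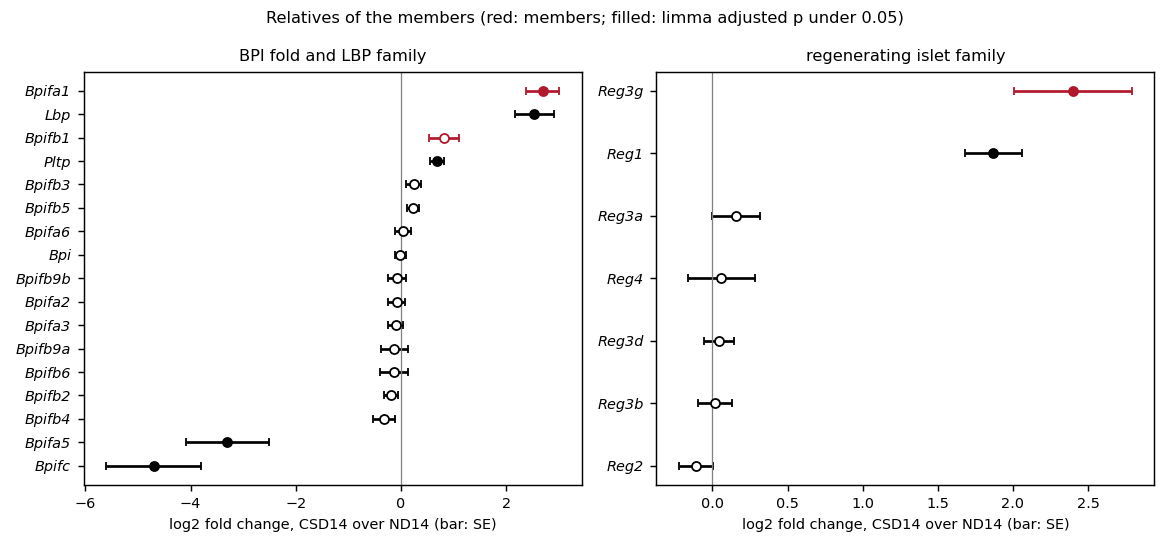
Log2 fold change with its SE, CSD14 over ND14, for the BPI fold and LBP family and the regenerating islet (Reg) family, with members in red and filled points where the limma adjusted p is under 0.05. In the first family Bpifa1, Lbp and Pltp rose while Bpifc and Bpifa5 fell, and in the second Reg3g and Reg1 rose and the other genes lie near 0.

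Genes that set or induce the secretory programme moved in both directions. Of 36 measured transcription factors of secretory fate and Notch genes, 8 rose and 6 fell in CSD14 against ND14, with a median of 0.02. Named here are the 4 with the lowest adjusted p, and the 6 that fell are not among them. The Notch target Hey1 rose by 2.59 (SE 0.27, limma adjusted p = 0.000827), Nkx2-1 by 0.91 (SE 0.12, adjusted p = 0.00212), the secretory-pathway factor Creb3l2 by 1.26 (adjusted p = 0.00234) and Id2 by 0.86 (adjusted p = 0.00236). Nkx2-1 had 5.05, 5.23 and 4.87 in CSD14, against 4.02, 4.22 and 4.17 in ND14. Of 37 cytokines, receptors and signal genes known to induce secretory defence genes, 6 rose and 2 fell, with a median of 0.01. The interferon gamma receptor chain Ifngr2 rose by 1.04 (adjusted p = 0.00187), the interleukin 13 receptor chain Il13ra1 by 0.78 (adjusted p = 0.00301) and the shared receptor chain Il6st by 1.08 (adjusted p = 0.00486), and Nfkbiz, a nuclear co-factor of NF-κB, fell by 0.62 (adjusted p = 0.0067). In CSD5 against CSD14, 1 rose and 1 fell among the transcription factors, and 0 rose and 2 fell among the inducers. Without CSD5 replicate 1 these were 1 and 3, and 0 and 1. Against ND14, 0 of either list passed in CSD5 with all arrays, and without that array 9 rose and 6 fell among the transcription factors and 4 rose and 4 fell among the inducers. In that last fit 3.40% of all clusters rose, and 3333 of 34472 were called in either direction.

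Markers of other cell types also differed between the groups, not all in the members' direction, and are given beside the members. Ciliated cell markers, of which 21 were measured, had 14 higher and 0 lower in CSD14 against ND14, with a mean log2 signal of the list of 5.06 to 5.24 in CSD14 and 4.11 to 4.21 in ND14. The same list lay at 3.51 to 4.10 in CSD5, with 14 of 21 lower than in CSD14, both with all arrays and without CSD5 replicate 1. Squamous and hillock cell markers went the other way, with 18 of 20 lower and 0 higher in CSD14, and a mean of 7.43 to 9.30 in CSD5, 5.66 to 5.73 in CSD14 and 9.25 to 9.44 in ND14. CSD5 replicate 1, which was lowest of its group for the members on average, had the highest mean of that list in CSD5, and without it the CSD5 range was 7.43 to 7.64. Of 12 AT2 (alveolar type 2) markers 3 rose and 0 fell in CSD14 against ND14, and their mean was 5.10 to 6.23 in CSD5, 4.68 to 4.78 in CSD14 and 4.42 to 4.50 in ND14. Without CSD5 replicate 1 the CSD5 range was 6.09 to 6.23. Sftpc, the defining AT2 gene, was at 9.49 to 11.49 in CSD5, 3.95 to 4.55 in CSD14 and 5.74 to 5.79 in ND14, and its CSD5 range without replicate 1 was 11.29 to 11.49. The part of these cell types in the members' differences was not tested.

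Other cells that are known to express single members were described in the same way. Of 18 neutrophil markers 4 fell and 0 rose in CSD14 against ND14. The 4 were Ltb4r1, S100a9, Cxcr2 and S100a8, and squamous epithelium also expresses S100a8 and S100a9. Of 15 submucosal gland and serous cell markers 0 rose and 2 fell. Of 13 goblet cell markers 4 rose and 2 fell. The 2 goblet markers that fell, against the 4 that rose, were the gel-forming mucins Muc5b and Muc5ac. The goblet list had a median log2 fold change of 0.08, so it did not fall as a whole. Basal cell markers had 2 of 10 higher and 4 lower, AT1 markers 4 of 12 higher and 3 lower, macrophage markers 1 of 13 higher, fibroblast markers 1 of 12 higher, which was Fn1, and endothelial markers 0 of 9 in either direction.

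**Figure D5:**
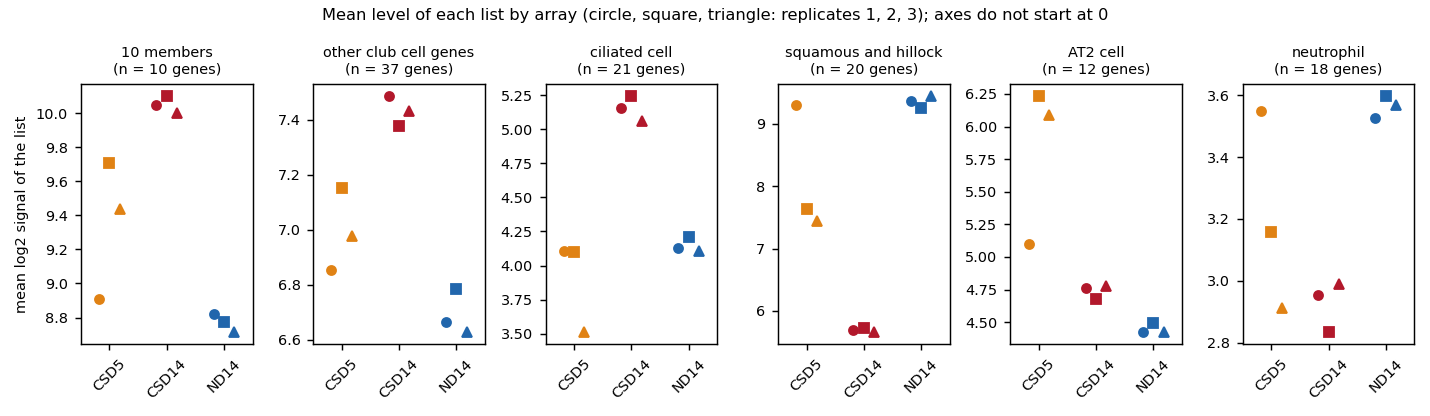
Mean log2 signal of the 10 members and of 5 marker lists on each array, for CSD5, CSD14 and ND14, with 1 symbol per replicate and a separate axis for each list. The members, the other club cell genes and the ciliated markers are highest in CSD14, the squamous and neutrophil lists are lower in CSD14 than in ND14, and the AT2 list is highest in CSD5.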

How the data were processed

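Lung organoid RNA of 3 groups (CSD5, CSD14 and ND14) was hybridised to 9 arrays (Affymetrix Mouse Gene 2.0 ST), 3 per group, from 10 ng of total RNA each, and the sample labels gave each array's group and replicate number. Deposited were log2 signals, 1 for each transcript cluster, that the authors produced in Transcriptome Analysis Console. The background correction and normalization algorithm is not given in the sources used here, and no further scaling was applied. Of 34472 transcript clusters 23521 carry 1 gene symbol in the platform annotation, 1820 carry several and 9131 carry none. Where a gene had several clusters, the one with the highest average signal was used. Array precision is limited by the 3 arrays per group, and an exact permutation test of 3 against 3 cannot give a p under 0.1.

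All 3 groups were fitted in 1 model with limma 3.58.1 in R 4.3.3, with empirical Bayes moderation, and p-values were Benjamini-Hochberg adjusted over all 34472 clusters, with calls at an adjusted p under 0.05. The procedure was tested on simulated data. The study's own rule, an unadjusted p under 0.05 and a fold over 2, was an alternative, as were a fit of the 6 arrays compared, quantile normalization, median centring, robust limma-trend, a filter at the 40th percentile, weights per array, a block for the replicate number, the mean of all clusters of a gene and leaving out each array in turn. The 10 members and 21 gene lists (404 genes, 382 measured) were chosen with earlier results of these data known, and the lists were written from general knowledge and received no test of their own. Named genes were all 10 members and the 10 genes most correlated with the members' mean profile. The latter came from named clusters with a mean over the array median and an SD of at least 0.5. In the club cell, defence, family, transcription factor and inducer lists, the called genes with the lowest adjusted p in CSD14 against ND14 were named (4 at most). Among the cell marker lists, called genes were named for neutrophils and fibroblasts, and for goblet cells only those that fell. Jchain, Camp, Ngp, Reg3b, Meltf, Upk3a, Cckar, Ces1f and Sftpc were named besides, after their values were seen. The study's thresholds without CSD5 replicate 1 were added after seeing the data. Start regions came from a RefSeq table of promoters with the build GRCm38.p6. Plots were made in Python 3.11.15 with matplotlib 3.10.9.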

Additional observations from a re-analysis of the deposited data

How the results depend on the processing

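Under the alternatives run, each of the 10 members kept a log2 fold change above 0 in CSD14 against ND14 and below 0 in CSD5 against CSD14. Between CSD5 and ND14, Scgb3a2 changed sign to 0.0020 after quantile normalization (adjusted p = 0.996). Scgb1a1, Scgb3a1, Bpifa1, Pigr and Reg3g passed in CSD14 against ND14 under all alternatives run. The count of 8 members became 5 by the study's thresholds (1637 clusters called in all, against 3153 by adjusted p) and 5 to 8 with 1 array left out, and the median log2 fold change of 0.94 ranged from 0.93 to 1.01 with 1 array left out. In CSD5 against CSD14 the count of 2 became 1 with only the 6 arrays compared, after median centring and with the replicate block, 0 by the study's thresholds without CSD5 replicate 1, chosen after seeing the data, and 1 to 3 with 1 array left out. The clusters called in all were 831, 141 with only the 6 arrays compared and 2514 with array weights. In CSD5 against ND14 the count of 0 became 8 with array weights (5900 clusters called in all, against 1), 3 by the study's thresholds (also 3 without CSD5 replicate 1) and 0 to 5 with 1 array left out, the 5 being without CSD5 replicate 1. The cause of these changes was not tested. Same-numbered arrays did not deviate together (correlation of deviations -0.133 to 0.065). With 3 arrays per group those correlations cannot tell whether the numbers pair the samples. With the replicate block 7 members rose in CSD14 against ND14, Lypd2 being lost (adjusted p = 0.0656, range 0.0141 to 0.138 over the alternatives), and Scgb3a1 was lost in CSD5 against CSD14 (adjusted p = 0.0508, range 0.0116 to 0.11). Arrays give no counts, and the dim cluster of Cyp2f2 and the near-saturated Ltf limit what the fold changes of those genes show.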
